A study of Homo sapiens with 9 samples.

Results

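Transcript levels of 7 metalloprotease genes, ADAM9, ADAM10, ADAM12, ADAM15, ADAM17, ADAM19 and ADAMTS1, were examined in hCMEC/D3 cells, an immortalised line of human brain microvascular endothelium with which the blood-brain barrier is modelled in culture. The genes were taken by name, as ADAM-family proteases that cut proteins at or near the cell surface, and the rule uses no measured value, although the set was put together with earlier results of these data known. They are 7 of 15570 genes listed and all 7 were among the 10818 genes tested. The libraries came from OGD/R cells (n = 3), which were deprived of oxygen and glucose for 4 h and then kept for 16 h in normal medium under 21% O2 and 5% CO2, from OGD cells (n = 3), which were taken at the end of 4 h without glucose in an atmosphere of 95% N2 and 5% CO2, and from control cells (n = 3). All 9 libraries were of 1 cell line, labelled hCMEC, and no label says that replicates were separate cultures, so p-values reflect the spread among these libraries alone, and that spread may be technical.

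ADAM proteases are membrane-anchored zinc enzymes made as inactive precursors. A furin-type convertase removes the prodomain, and the mature enzyme can then release the outer part of cytokines, growth factors, adhesion molecules and receptors, which is called shedding. ADAM10 sheds Notch receptors, cadherins and the amyloid precursor protein. ADAM17 releases tumour necrosis factor, its receptors and several ligands of the epidermal growth factor receptor. ADAM9, ADAM12, ADAM15 and ADAM19 are related membrane proteases with narrower or less settled sets of substrates. ADAMTS1 differs from the rest in that it is secreted and cuts matrix proteoglycans such as versican. In brain endothelium, shedding of junctional and adhesion proteins bears on barrier tightness and on leukocyte contact.

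The 3 groups of libraries were separated by the first principal component, which held 70.1% of the variance and placed OGD/R between -47.1 and -30.2, OGD between 41.6 and 46.2 and control between -14.5 and 7.05. Control library 3, at 7.05, stood towards OGD from the other two at -14.5 and -9.97. The median log2 fold change of all tested genes was 0.39 for OGD/R against OGD, -0.31 for OGD against control and 0.07 for OGD/R against control, so changes are also given relative to these medians. The slope of log2 level on log2 transcript length ran from 0.134 to 0.232 in OGD/R, from -0.205 to -0.154 in OGD and from -0.0737 to 0.0544 in control, and the 7 genes were therefore also fitted after that length trend was removed. Of 14 endothelial markers 13 were listed, and 6 averaged at least 1 FPKM (fragments per kilobase of transcript, scaled to the mapped fragments) in OGD/R, 4 in OGD and 6 in control. The 6 were CDH5, PECAM1, ROBO4, EGFL7, MCAM and ENG, and CDH5 and PECAM1 were those below 1 FPKM in OGD. Among the other endothelial markers, VWF, CLDN5, KDR, TEK and ERG were at 0.191 FPKM or below in every library. Summed endothelial markers, mostly MCAM and ENG, reached 105 to 118 FPKM in OGD/R, 36.0 to 37.2 in OGD and 49.4 to 61.7 in control. Fibroblast markers, of which 6 of 7 were listed, summed to 52.1 to 69.7 FPKM in OGD/R, 9.27 to 10.7 in OGD and 20.4 to 28.3 in control. The 9 pericyte and smooth muscle markers summed to 18.8 to 21.6 FPKM in OGD/R, 6.33 to 7.97 in OGD and 10.8 to 14.6 in control. The 7 epithelial markers, mostly KRT18, summed to 238 to 257 FPKM in OGD/R, 130 to 140 in OGD and 166 to 201 in control, and of 9 listed markers of astrocytes, neurons and leukocytes only CD68 reached 1 FPKM. These sums moved in the same direction as most of the 7 proteases, and their part in the results was not tested. In bulk RNA, fewer cells that carry a transcript and less of it per cell cannot be told apart.

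The 7 genes lie on 7 chromosomes. In RefSeq for GRCh38.p14, ADAM9 (gene ID 8754) spans chr8:38996973-39105261 on the plus strand and ADAM15 (8751) spans chr1:155051316-155062775 on the plus strand. The others lie on the minus strand, ADAM10 (102) at chr15:58588809-58749707, ADAM12 (8038) at chr10:126012391-126388477, ADAM17 (6868) at chr2:9488486-9555830, ADAM19 (8728) at chr5:157477304-157575775 and ADAMTS1 (9510) at chr21:26835755-26845409. Principal transcripts in GENCODE ranged from 2949 nucleotides for ADAM15 to 11431 for ADAM10. Overlaps with another listed gene bear on 2 of the members. ADAM17 shares its 3' part with IAH1, an esterase gene that spans chr2:9473812-9512408, and the first bases of ADAM9 overlap the edge of TM2D2, whose span reaches position 38996990. The sources used here do not say whether counting used strand, so reads in the shared stretches may have been given to either gene. The order of the groups for IAH1 was the reverse of that for ADAM17, with means of 38.6 FPKM in OGD/R, 66.4 in OGD and 54.0 in control. TM2D2 was not called in any comparison (limma adjusted p from 0.395 to 0.767).

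In the annotation columns of the deposited table, all 7 genes carry the term metalloendopeptidase activity, which 0.662% of all listed genes carry. All 7 also carry the Reactome term extracellular matrix organization (1.68% of genes). The 6 membrane-bound members carry SH3 domain binding (0.732% of genes) and plasma membrane (23.0%), which ADAMTS1 does not. ADAM9, ADAM10, ADAM17 and ADAM19 carry membrane protein ectodomain proteolysis (0.161% of genes), the term for shedding itself, while ADAM12 and ADAM15 do not.

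Promoters were available for 5 of the 7 genes in the RefSeq table for GRCh38.p14, each covering 250 bases before to 50 after the start of transcription. The sequences of ADAM12, ADAM17 and ADAM19, which were higher in OGD/R than in control cells, and of ADAM10, which was not called there, are shown 5' to 3' on the minus strand, from chr10:126388428-126388727, chr2:9555781-9556080, chr5:157575726-157576025 and chr15:58749658-58749957. The promoter of ADAM15, also called higher in OGD/R than in control cells (limma adjusted p = 0.042), is not printed but is described below. Capitals mark the core letters bound by hypoxia-inducible factor (ACGTG or GCGTG) and the Sp1 box (GGGCGG) on either strand.
ADAM12 promoter: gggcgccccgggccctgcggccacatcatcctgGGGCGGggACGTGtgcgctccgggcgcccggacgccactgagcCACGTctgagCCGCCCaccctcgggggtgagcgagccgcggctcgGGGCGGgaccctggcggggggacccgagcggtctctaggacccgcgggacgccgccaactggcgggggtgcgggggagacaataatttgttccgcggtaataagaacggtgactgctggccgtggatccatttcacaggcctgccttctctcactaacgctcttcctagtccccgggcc
ADAM17 promoter: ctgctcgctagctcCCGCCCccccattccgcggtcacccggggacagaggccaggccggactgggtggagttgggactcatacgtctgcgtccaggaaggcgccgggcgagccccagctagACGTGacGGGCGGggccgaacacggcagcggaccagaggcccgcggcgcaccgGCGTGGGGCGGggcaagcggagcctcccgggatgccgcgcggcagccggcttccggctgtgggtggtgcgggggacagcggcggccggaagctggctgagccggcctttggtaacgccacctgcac
ADAM19 promoter: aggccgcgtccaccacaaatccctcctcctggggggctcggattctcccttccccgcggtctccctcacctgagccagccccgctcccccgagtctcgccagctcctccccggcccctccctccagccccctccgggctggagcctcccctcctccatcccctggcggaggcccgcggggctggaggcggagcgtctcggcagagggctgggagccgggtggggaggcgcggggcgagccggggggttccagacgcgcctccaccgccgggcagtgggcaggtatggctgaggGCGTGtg
ADAM10 promoter: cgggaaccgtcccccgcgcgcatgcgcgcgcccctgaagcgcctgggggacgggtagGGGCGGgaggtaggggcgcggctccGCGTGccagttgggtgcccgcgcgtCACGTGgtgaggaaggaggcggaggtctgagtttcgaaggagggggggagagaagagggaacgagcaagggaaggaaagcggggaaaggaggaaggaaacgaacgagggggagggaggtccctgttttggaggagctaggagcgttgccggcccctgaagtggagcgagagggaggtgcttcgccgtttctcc
All 5 promoters were rich in G and C, with 71.0% in ADAM12, 74.7% in ADAM17, 75.7% in ADAM19, 79.3% in ADAM15 and 68.0% in ADAM10, against a median of 58.7% over 35116 promoters. The hypoxia core occurred 2 times in ADAM12, 2 in ADAM17, 1 in ADAM19 and 3 in ADAM10, was not found in ADAM15, and was present in 48.4% of all promoters. In ADAM10, 2 of the 3 matches are the same stretch read on both strands, which is also the E-box CACGTG (7.26% of promoters). In ADAM17, a hypoxia core and an Sp1 box run on without a gap in GCGTGGGGCGG. The Sp1 box occurred 3 times in ADAM12, 3 in ADAM17, 1 in ADAM10 and 6 in ADAM15, was not found in ADAM19, and was present in 45.0% of all promoters. The ETS core CCGGAAG was found 2 times in ADAM17 (10.3% of promoters), in lower case above. No match was found in these windows for the AP-1 letters TGANTCA, the cyclic AMP response element TGACGTCA, the CCAAT box or the amino acid response letters TGATGNAA, which 7.71%, 1.85%, 34.6% and 3.62% of promoters hold.

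ADAM9 was the most abundant of the 7 transcripts in every library. FPKM is scaled to transcript length, so levels were set side by side between genes. A length trend that differed between the groups remained, however. Close orders, such as that of ADAM15 and ADAM10 with 2949 and 11431 nucleotides, are therefore uncertain. Mean levels in control cells ran in the order ADAM9, ADAM15, ADAM10, ADAM17, ADAM19, ADAM12 and ADAMTS1, and the order of the first 4 was the same in OGD/R and in OGD. ADAM9 lay above 94.1% of tested genes in OGD/R, 89.5% in OGD and 94.1% in control, whereas ADAMTS1 lay above 13.0% in OGD/R, 15.4% in OGD and 4.03% in control. ADAM15 and ADAM10 were neighbours whose ranges were apart in OGD/R and overlapped in OGD and in control. ADAM19, ADAM12 and ADAMTS1 were the low members, and each overlapped its neighbour in that order in OGD/R and in control.

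**Figure D1:**
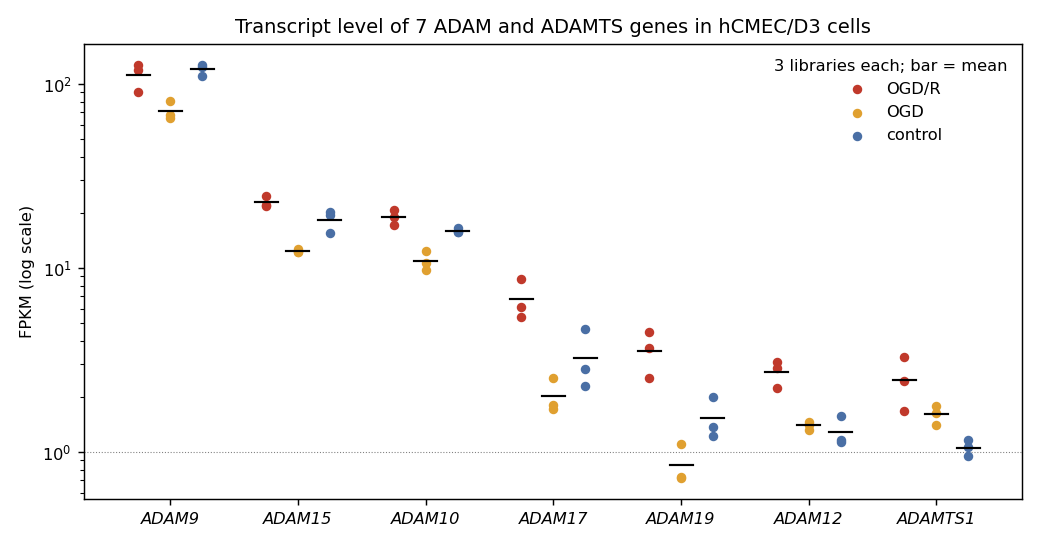
FPKM on a log axis for each of the 7 genes, with 3 libraries per group as points and the group mean as a bar, for OGD/R, OGD and control from left to right within each gene. ADAM9 stands above 65 FPKM in all 9 libraries, and the OGD points of ADAM9, ADAM10 and ADAM15 lie below those of both other groups.

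ADAM9, also called meltrin-gamma, had 90.8, 126.8 and 119.8 FPKM in OGD/R libraries 1 to 3, 80.9, 68.1 and 65.4 FPKM in OGD, and 127.3, 123.0 and 110.0 FPKM in control. The OGD libraries were all below the other 6, and OGD/R and control overlapped. ADAM10, the main alpha-secretase, had 17.2, 20.6 and 18.9 FPKM in OGD/R, 12.4, 10.6 and 9.78 FPKM in OGD, and 16.5, 15.6 and 15.6 FPKM in control. Its OGD values were again the lowest, and each OGD/R value exceeded each control value. ADAM15, or metargidin, which in humans carries an integrin-binding motif, had 22.1, 21.8 and 24.5 FPKM in OGD/R, 12.2, 12.2 and 12.6 FPKM in OGD, and 20.1, 19.5 and 15.4 FPKM in control. The 3 groups of ADAM15 values did not overlap, and control library 3 was the control closest to OGD.

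ADAM17, the tumour necrosis factor converting enzyme, had 5.44, 8.69 and 6.11 FPKM in OGD/R, 2.51, 1.80 and 1.72 FPKM in OGD, and 4.65, 2.27 and 2.84 FPKM in control. The OGD/R values lay above all others, while control library 2 lay inside the OGD range. ADAM19, meltrin-beta, known for cleaving neuregulin, had 2.53, 3.66 and 4.46 FPKM in OGD/R, 1.10, 0.734 and 0.720 FPKM in OGD, and 1.22, 1.98 and 1.37 FPKM in control. Its groups did not overlap, with OGD/R highest and OGD lowest. ADAM12, meltrin-alpha, which can release heparin-binding EGF, had 2.22, 2.85 and 3.07 FPKM in OGD/R, 1.46, 1.32 and 1.41 FPKM in OGD, and 1.16, 1.57 and 1.13 FPKM in control. OGD/R stood apart, and OGD lay within the control range. ADAMTS1 had 1.67, 3.27 and 2.44 FPKM in OGD/R, 1.78, 1.62 and 1.41 FPKM in OGD, and 1.06, 1.16 and 0.948 FPKM in control. It was the only one of the 7 with every OGD library above every control library, and OGD/R library 1 lay inside the OGD range.

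The comparison of OGD with control cells sets the end of deprivation, before any reoxygenation, beside control cells. No hours or gas values were recorded for control cells in the sample labels used here. In both comparisons with control, time in culture and handling therefore cannot be told apart from treatment. ADAM9, ADAM10 and ADAM15, the 3 abundant members, fell, and none of the 7 rose at an adjusted p below 0.05 in limma, a linear model fitted to log2(FPKM + 1) of all tested genes. In the same comparison 46.7% of all tested genes were called lower, 11.3% higher and 58.0% in either direction, so 3 of 7 lower is close to what genes at large did. Every OGD library was below every control library for 4 of the 7 (ADAM9, ADAM10, ADAM15 and ADAM19), as it was for 51.8% of tested genes, and above for ADAMTS1, as it was for 13.2%. ADAM9 averaged 71.5 ± 8.24 FPKM in OGD and 120 ± 8.97 in control (SD, n = 3 each), a log2 fold change of -0.74 (SE 0.13, limma adjusted p = 0.000509). Relative to the median gene its log2 change was -0.43. ADAM10 averaged 10.9 ± 1.34 FPKM in OGD and 15.9 ± 0.550 in control (log2 fold change -0.51, SE 0.11, limma adjusted p = 0.00221), and ADAM15 averaged 12.4 ± 0.236 FPKM in OGD and 18.3 ± 2.53 in control (-0.52, SE 0.11, limma adjusted p = 0.00188). Relative to the median gene, these changes were -0.20 and -0.22.

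ADAM17 and ADAM19 had lower means in OGD without passing the threshold. ADAM17 averaged 2.01 ± 0.435 FPKM in OGD and 3.25 ± 1.25 in control (log2 fold change -0.47, SE 0.21, limma adjusted p = 0.0748), and single libraries moved it both ways, to -0.24 (adjusted p = 0.3) without control library 1 and to -0.64 (adjusted p = 0.026) without control library 2. ADAM19 averaged 0.852 ± 0.217 FPKM in OGD and 1.52 ± 0.403 in control (-0.44, SE 0.18, limma adjusted p = 0.0508), and it was called when either OGD/R library 1 or 3, OGD library 1 or control library 1 was left out (adjusted p from 0.0321 to 0.0445), and not when any other library was, with adjusted p up to 0.165 without control library 2. ADAM12 averaged 1.40 ± 0.0684 FPKM in OGD and 1.29 ± 0.245 in control (0.08, SE 0.14, limma adjusted p = 0.649). ADAMTS1 averaged 1.61 ± 0.184 FPKM in OGD and 1.06 ± 0.104 in control (0.34, SE 0.16, limma adjusted p = 0.0913), and without OGD/R library 1 its adjusted p was 0.0497. Relative to the median gene ADAMTS1 was higher by 0.65. Fold changes on this scale understate the change of genes with low values, which applies to ADAM12, ADAM17, ADAM19 and ADAMTS1.

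Scaling between libraries decided several of these calls. The alternatives were median-of-ratios scaling, quantile normalization and removal of the length trend. ADAM9 stayed lower in OGD under each of them, with log2 fold changes of -0.36, -0.74 and -0.34. ADAM10 and ADAM15 were no longer called under any of the 3, with values between -0.20 and -0.12. ADAM12 and ADAMTS1 were called higher under all 3, at 0.30 to 0.49 for ADAM12 and 0.57 to 0.76 for ADAMTS1. Thus 2 of the 7 were called higher and 1 lower under each of these scalings, where 27.1%, 20.0% and 20.4% of all tested genes were called higher and 22.4%, 22.4% and 22.3% lower.

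Reoxygenation was then compared with deprivation. ADAM9, ADAM10, ADAM12, ADAM15, ADAM17 and ADAM19 rose in OGD/R against OGD, and none fell. Of all tested genes 53.3% were called higher, 17.4% lower and 70.7% in either direction. The same 6 had every OGD/R library above every OGD library, as did 57.8% of tested genes, while 20.4% had every OGD/R library below. ADAM17 and ADAM19 had the largest ratios, with ADAM17 at 6.75 ± 1.72 FPKM in OGD/R and 2.01 ± 0.435 in OGD (SD, n = 3 each), and ADAM19 at 3.55 ± 0.974 FPKM in OGD/R and 0.852 ± 0.217 in OGD. These means differed 3.35-fold for ADAM17 (log2 fold change 1.35, SE 0.21, limma adjusted p = 0.000112) and 4.17-fold for ADAM19 (1.28, SE 0.18, limma adjusted p = 4.61e-05). Relative to the median gene, the log2 differences were 0.96 and 0.89.

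ADAM15 averaged 22.8 ± 1.46 FPKM in OGD/R and 12.4 ± 0.236 in OGD (log2 fold change 0.83, SE 0.11, limma adjusted p = 3.17e-05). ADAM10 averaged 18.9 ± 1.67 FPKM in OGD/R and 10.9 ± 1.34 in OGD (0.74, SE 0.11, limma adjusted p = 7.62e-05), and ADAM9 averaged 112 ± 19.1 in OGD/R and 71.5 ± 8.24 in OGD (0.64, SE 0.13, limma adjusted p = 0.00068). ADAM12 averaged 2.71 ± 0.442 FPKM in OGD/R and 1.40 ± 0.0684 in OGD (0.62, SE 0.14, limma adjusted p = 0.00136). ADAMTS1 averaged 2.46 ± 0.801 FPKM in OGD/R and 1.61 ± 0.184 in OGD (0.39, SE 0.16, limma adjusted p = 0.0504), and without OGD/R library 1, the lowest of its group, the difference was 0.56 with an adjusted p of 0.00654, whereas without OGD/R library 2, the highest, it was 0.22 with an adjusted p of 0.225. Without control library 3 the adjusted p of ADAMTS1 was 0.0497.

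ADAM15, ADAM17 and ADAM19 were called higher in OGD/R than in OGD under all 3 other scalings, with log2 fold changes of at least 0.36, 0.71 and 0.57. ADAM10 was called under median-of-ratios and quantile scaling but not after removal of the length trend, where its difference was 0.02. ADAM10 has the longest transcript of the 7 (11431 nucleotides), and the length slopes of OGD/R and OGD had opposite signs. ADAM9, whose call was also lost without the length trend, has 3839 nucleotides. Removal of the length trend also recentred the libraries. The median log2 fold change of all tested genes in this comparison went from 0.39 to -0.003. A part of transcript length in these losses, as distinct from that recentring, was not tested. ADAM9 was not called under median-of-ratios scaling (0.15) or after removal of the length trend (0.04). ADAM12 was not called under quantile scaling (0.10), and its sign turned to -0.09 when the length trend was removed. The difference of ADAMTS1 was 0.06 under median-of-ratios scaling and turned negative, to -0.15 and -0.29, under quantile scaling and removal of the length trend, without a call under any of them. The scalings left 5, 5 and 3 of the 7 called higher and none lower, where 31.7%, 31.4% and 29.5% of all tested genes were called higher and 35.0%, 31.3% and 29.8% lower.

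The comparison of OGD/R with control cells shows where transcripts stood 16 h after deprivation ended. It shares its libraries with both comparisons above, so the 3 sets of values are not independent. ADAM12, ADAM15, ADAM17, ADAM19 and ADAMTS1 were higher in OGD/R than in control cells and none was lower. Of all tested genes 24.7% were called higher, 16.5% lower and 41.2% in either direction, so 5 of 7 higher is above the share among genes at large. The 7 genes were chosen with earlier results of these data known, so this excess is not independent evidence about the set. The median log2 fold change of the 7 was 0.70, against 0.07 for all tested genes.

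ADAM17 averaged 6.75 ± 1.72 FPKM in OGD/R and 3.25 ± 1.25 in control (SD, n = 3 each), 2.07-fold (log2 fold change 0.88, SE 0.21, limma adjusted p = 0.0059). ADAM19 averaged 3.55 ± 0.974 FPKM in OGD/R and 1.52 ± 0.403 in control, 2.33-fold (0.84, SE 0.18, limma adjusted p = 0.00292). ADAMTS1 averaged 2.46 ± 0.801 FPKM in OGD/R and 1.06 ± 0.104 in control, also 2.33-fold (0.73, SE 0.16, limma adjusted p = 0.00406). ADAM12 averaged 2.71 ± 0.442 FPKM in OGD/R and 1.29 ± 0.245 in control (0.70, SE 0.14, limma adjusted p = 0.00175). For each of these 4 genes, and for ADAM10 and ADAM15, every OGD/R library was above every control library, as it was for 28.5% of all tested genes, while 19.3% had every OGD/R library below. All 4 were called under each of the 3 other scalings and in every fit that left out 1 library, with log2 fold changes from 0.66 to 1.11 for ADAM17, 0.55 to 1.16 for ADAM19, 0.47 to 1.10 for ADAMTS1 and 0.40 to 1.02 for ADAM12 over all alternatives.

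ADAM15 averaged 22.8 ± 1.46 FPKM in OGD/R and 18.3 ± 2.53 in control (log2 fold change 0.31, SE 0.11, limma adjusted p = 0.042). It was not called under any of the 3 other scalings, nor in 7 of the 9 fits that left out 1 library. Its adjusted p reached 0.151 without OGD/R library 3 and 0.139 without control library 3, and it lay between 0.0602 and 0.0657 without OGD/R library 1 or 2 or any 1 OGD library. ADAM10 averaged 18.9 ± 1.67 FPKM in OGD/R and 15.9 ± 0.550 in control (0.23, SE 0.11, limma adjusted p = 0.111, with a sign that turned to -0.10 after removal of the length trend). ADAM9 averaged 112 ± 19.1 FPKM in OGD/R and 120 ± 8.97 in control (-0.11, SE 0.13, limma adjusted p = 0.532; 0.04 without OGD/R library 1), with 95% limits on the log2 difference of -0.38 and 0.17. After removal of the length trend ADAM9 was called lower in OGD/R (-0.30, limma adjusted p = 0.0187). Under median-of-ratios scaling, quantile scaling and removal of the length trend, 4 of the 7 were called higher each time and 0, 0 and 1 lower, where 21.6%, 22.1% and 20.8% of all tested genes were called higher and 23.6%, 23.1% and 23.0% lower.

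**Figure D2:**
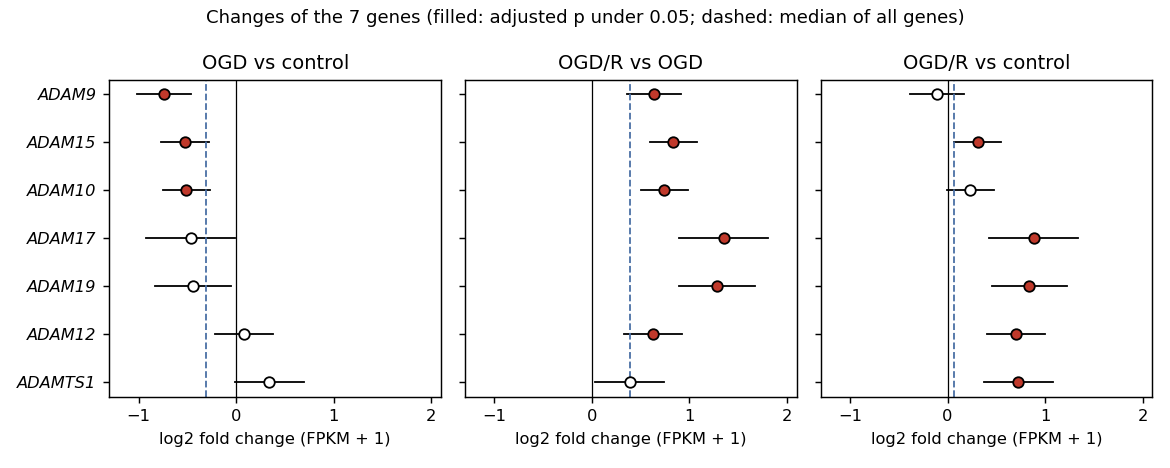
Log2 fold change of log2(FPKM + 1) with its 95% interval for the 7 genes in each comparison, filled where the limma adjusted p was under 0.05, with the median of all tested genes as a dashed line. In OGD/R against control, ADAM12, ADAM17, ADAM19 and ADAMTS1 lie between 0.70 and 0.88, well right of the median at 0.07, and ADAM9 lies at -0.11.

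**Figure D3:**
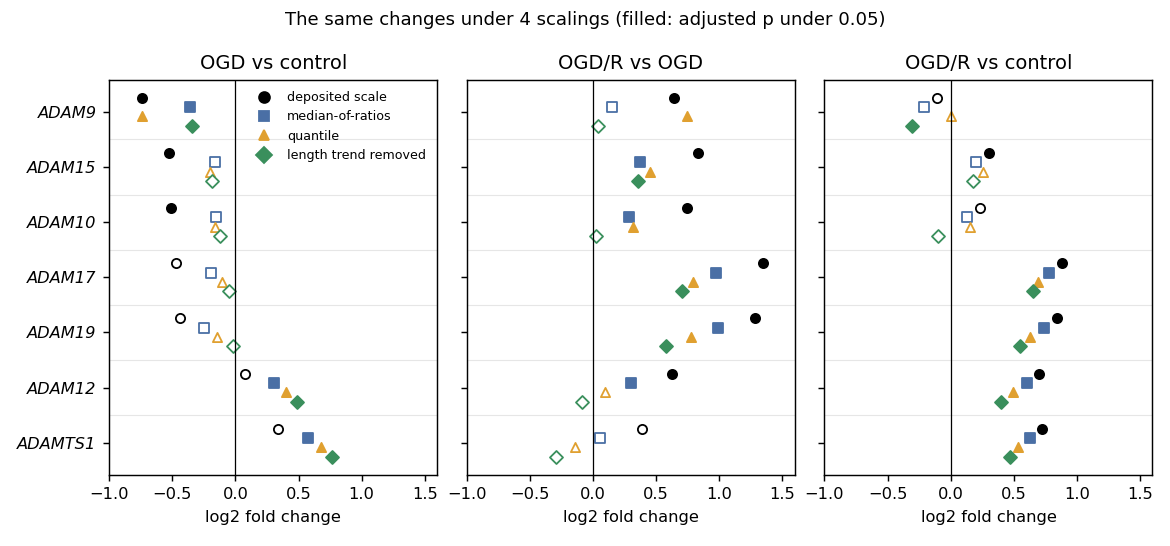
The log2 fold changes of the 7 genes under the deposited scale and 3 other scalings, filled where the limma adjusted p was under 0.05. In OGD/R against control the 4 marks of ADAM12, ADAM17, ADAM19 and ADAMTS1 are filled throughout, whereas in OGD against control the marks of ADAM10 and ADAM15 are filled on the deposited scale alone.

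The make-up of the group also shifted. The 7 genes summed to 142, 187.7 and 179.3 FPKM in OGD/R, 112.3, 96.4 and 93.1 FPKM in OGD and 172, 165 and 147.3 FPKM in control. ADAM9 took 63.9% to 67.6% of that sum in OGD/R, 70.3% to 72.0% in OGD and 74.0% to 74.7% in control, with no overlap between groups. ADAM17 took 3.41% to 4.63% in OGD/R, 1.85% to 2.24% in OGD and 1.38% to 2.71% in control. Without ADAM9 the other 6 summed to 57.2 ± 5.22 FPKM in OGD/R, 29.1 ± 2.03 in OGD and 41.4 ± 3.75 in control (SD, n = 3 each). Ratios within a library do not depend on a common scale factor. For each 100 FPKM of ADAM10, ADAM17 had 31.5, 42.2 and 32.3 in OGD/R, 20.3, 17.1 and 17.6 in OGD, and 28.1, 14.6 and 18.2 in control. The OGD/R ratios were the highest 3 of the 9, with control library 1 next. An exact 2-sided permutation test gave p = 0.1, the smallest that 3 against 3 libraries allow, for OGD/R against OGD and against control, and p = 0.8 for OGD against control, or 0.18, 0.18 and 0.8 after Benjamini-Hochberg adjustment over 9 such tests. For each 100 FPKM of ADAM9, ADAM10 had 19.0, 16.2 and 15.8 in OGD/R, 15.3, 15.5 and 14.9 in OGD, and 13.0, 12.7 and 14.2 in control. These 3 sets did not overlap (exact permutation p = 0.1 in each comparison, adjusted 0.18). The rise of this ratio from OGD to OGD/R depended on scaling. After removal of the length trend the log2 fold changes were 0.02 for ADAM10 and 0.04 for ADAM9, and under quantile scaling 0.32 and 0.74. In OGD against control and in OGD/R against control, ADAM10 kept the higher value under both.

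The 7 transcripts varied together to different degrees over the 9 libraries, which share their 3 groups. Pearson's r of log2 values was highest for ADAM10 with ADAM15 (0.915) and ADAM12 with ADAM19 (0.906) and lowest for ADAM9 with ADAMTS1 (0.111). Among 7335 other tested genes with a mean of at least 5 FPKM, the patterns most like ADAM9 were those of TMEM30A (0.994), MED13 (0.992) and LNPK (0.990). For ADAM10 they were AP1G1 (0.996), GOLIM4 (0.993) and SMC1A (0.993), and for ADAM15 TOR4A (0.996), GLYR1 (0.992) and SMG5 (0.992). For ADAM17 they were TP53BP2 (0.991), PNN (0.989) and MAEA (0.987), and for ADAM19 MED1 (0.980), SH3GLB1 (0.979) and NUP98 (0.975). For ADAM12 they were FGF5 (0.979), PDLIM5 (0.978) and VARS1 (0.969), and for ADAMTS1 TXNDC5 (0.981), TIPARP (0.966) and SLC20A1 (0.966). TIPARP averaged 24.3 FPKM in OGD/R, 17.9 in OGD and 13.3 in control, a rank order shared with ADAMTS1.

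Genes that act with these proteases were read from lists of partners, inhibitors and substrates. Their counts stand against 46.7% of all tested genes called lower and 11.3% higher in OGD against control, 53.3% higher and 17.4% lower in OGD/R against OGD, and 24.7% higher and 16.5% lower in OGD/R against control, so falls in OGD and rises from OGD to OGD/R were common among genes at large. ADAM17 needs an iRhom protein to leave the endoplasmic reticulum and to be held active at the surface. All 3 genes on this list, the iRhom genes RHBDF1 and RHBDF2 and the iRhom-binding FRMD8, fell in OGD against control. All 3 rose in OGD/R against OGD, and 1 was higher in OGD/R than in control. These changes were all in the direction that most called genes took. RHBDF2, which encodes iRhom2, had 7.07, 9.07 and 7.68 FPKM in OGD/R, 2.36, 1.89 and 2.25 FPKM in OGD, and 4.90, 2.82 and 2.60 FPKM in control. OGD/R stood above the other groups, as it did for ADAM17, and the log2 fold change against control was 1.04 (SE 0.18, limma adjusted p = 0.00084). Under the 3 other scalings all 3 genes kept the rise in OGD/R against OGD, but only 1 or 2 kept the fall in OGD.

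ADAM10 is escorted by tetraspanins of the TspanC8 group, which steer it to different substrates. Of 6 listed, 4 passed the expression filter. In OGD against control TSPAN5, TSPAN15 and TSPAN17 fell, in OGD/R against OGD TSPAN5, TSPAN14 and TSPAN17 rose, and in OGD/R against control TSPAN14 rose while TSPAN15 fell. TSPAN14 had 14.8, 16.5 and 12.9 FPKM in OGD/R, 5.39, 5.71 and 4.98 in OGD, and 9.89, 5.24 and 8.20 in control. The log2 fold change against control was 0.88 (SE 0.18, limma adjusted p = 0.00229). TSPAN15, known to direct ADAM10 to N-cadherin, had 4.04, 3.88 and 4.31 FPKM in OGD/R, 3.05, 3.39 and 2.96 in OGD, and 7.64, 5.74 and 6.25 in control. Each OGD/R library of TSPAN15 lay below each control library (-0.56, SE 0.13, limma adjusted p = 0.00453), and both calls held under the 3 other scalings. TSPAN5, in contrast, changed sign with scaling in OGD against control and in OGD/R against OGD.

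FURIN, the convertase that removes prodomains, averaged 11.8 ± 1.02 FPKM in OGD/R, 2.02 ± 0.174 in OGD and 6.04 ± 1.62 in control (SD, n = 3 each). It fell in OGD against control (log2 fold change -1.20, SE 0.16, limma adjusted p = 0.000119), and it was higher in OGD/R than in OGD (2.08, SE 0.16, limma adjusted p = 6.51e-07) and than in control (0.89, SE 0.16, limma adjusted p = 0.00121). PCSK7, a related convertase, averaged 4.38 FPKM in OGD/R, 1.96 in OGD and 1.67 in control and was higher in OGD/R than in control (2.62-fold, limma adjusted p = 0.000338). These were the 2 of 5 listed convertases that passed the filter.

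All 5 inhibitors were tested. TIMP3, the tissue inhibitor that blocks ADAM17 and ADAM10, had 66.7, 77.6 and 67.2 FPKM in OGD/R, 26.6, 24.7 and 24.3 in OGD, and 29, 28.0 and 27.2 in control. It was higher in OGD/R than in control by 2.51-fold (log2 fold change 1.30, SE 0.09, limma adjusted p = 3.07e-06), so the inhibitor moved the same way as ADAM17. The number of TIMP3 FPKM per ADAM17 FPKM was 12.3, 8.92 and 11 in OGD/R, 10.6, 13.7 and 14.1 in OGD, and 6.24, 12.3 and 9.57 in control, with overlap between OGD/R and control (exact permutation p = 0.7, adjusted 0.787). TIMP2 averaged 72.1 ± 7.25 FPKM in OGD/R, 20.5 ± 0.613 in OGD and 40.2 ± 5.27 in control and was called in all 3 comparisons. TIMP4 ran the other way, at 1.29 ± 0.481 FPKM in OGD/R, 3.27 ± 0.0470 in OGD and 1.80 ± 0.681 in control (log2 fold change 0.64 for OGD against control, SE 0.19, limma adjusted p = 0.0121). RECK, a membrane-anchored inhibitor of metalloproteases, averaged 8.29 ± 1.11 FPKM in OGD/R and 10.6 ± 0.472 in control and was lower in OGD/R (-0.33, SE 0.12, limma adjusted p = 0.0378). By count, 1 inhibitor rose (TIMP4) and 1 fell (TIMP2) in OGD against control, 3 rose (TIMP1, TIMP2 and TIMP3) and 1 fell (TIMP4) in OGD/R against OGD, and the same 3 rose and 1 fell (RECK) in OGD/R against control. TIMP1 lost both of its calls under median-of-ratios scaling.

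The stubs left by shedding are cut further by gamma-secretase, and all 5 of its listed genes were tested. NCSTN, which encodes the substrate-binding subunit nicastrin, had 39.6, 49.8 and 36.8 FPKM in OGD/R, 12.5, 12.1 and 11.8 in OGD, and 18.5, 18.1 and 13.9 in control. It was higher in OGD/R than in control (log2 fold change 1.27, SE 0.13, limma adjusted p = 3.8e-05), whereas APH1A was lower, at 102 ± 12.4 FPKM in OGD/R and 136 ± 17.1 in control (-0.40, SE 0.11, limma adjusted p = 0.0117, not called under quantile scaling). The catalytic PSEN2 averaged 5.75 FPKM in OGD/R and 4.31 FPKM in control (limma adjusted p = 0.177). In OGD against control 1 of the 5 rose (PSENEN) and 2 fell (NCSTN and APH1B), and in OGD/R against OGD 3 rose (NCSTN, PSEN2 and APH1B) and 2 fell (APH1A and PSENEN). Under the 3 other scalings NCSTN alone kept its rise in OGD/R against OGD, and no fall in OGD was called.

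Many substrate transcripts of the membrane-bound sheddases were higher in OGD/R than in control cells, where 24.7% of all tested genes were. Of 12 adhesion substrates tested 6 rose and none fell, of 16 receptor substrates 11 rose and none fell, of 5 cytokine and chemokine substrates 4 rose and 1 fell (KITLG, the ligand of the receptor KIT), and of 2 ligands of the EGF receptor HBEGF rose. In OGD against control 8, 9, 4 and 0 of these fell and 1, 3, 0 and 1 rose, where 46.7% of all tested genes fell and 11.3% rose. For OGD/R against OGD, 11, 11, 4 and 1 rose and 0, 1, 0 and 0 fell, where 53.3% of all tested genes rose. NOTCH3, counted among the receptor rises in both comparisons with OGD/R, passed the filter through OGD/R alone (1.64 to 2.17 FPKM, against 0.843 or below elsewhere). Its rises are open to that selection. The falls in OGD against control dropped to between 2 and 4 for the adhesion list, between 2 and 5 for the receptor list and 2 for the cytokine list under the 3 other scalings.

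APP, the amyloid precursor protein and a classical substrate of ADAM10, had 188, 244.4 and 200.3 FPKM in OGD/R, 88.2, 73.5 and 76.6 in OGD, and 128.2, 89.8 and 109.4 in control. OGD/R was above both other groups, 1.93-fold over control (log2 fold change 0.95, SE 0.14, limma adjusted p = 0.000238). NOTCH2, whose activation begins with a cut by ADAM10, averaged 9.52 ± 0.765 FPKM in OGD/R, 2.21 ± 0.125 in OGD and 3.45 ± 0.337 in control (OGD/R against control 1.24, SE 0.12, limma adjusted p = 2.67e-05). ICAM1, the leukocyte adhesion molecule, averaged 75.3 ± 5.60 FPKM in OGD/R, 19.9 ± 0.0363 in OGD and 23.3 ± 1.70 in control (1.65, SE 0.09, limma adjusted p = 2.54e-06). L1CAM averaged 34.7 ± 3.19 FPKM in OGD/R, 6.54 ± 0.482 in OGD and 10.8 ± 3.64 in control (1.64, SE 0.19, limma adjusted p = 6.17e-05). CD44, the hyaluronan receptor, had 98.3, 118.9 and 99.5 FPKM in OGD/R, 103.2, 113.9 and 111.8 in OGD, and 46.6, 44.9 and 44.4 in control. It was already higher in OGD (log2 fold change 1.26 against control, SE 0.09, limma adjusted p = 1.76e-06). HBEGF, an EGF receptor ligand released by ADAM17 and ADAM12, stepped up through both stages, at 16.3, 21.1 and 16.7 FPKM in OGD/R, 9.47, 8.81 and 9.46 in OGD, and 6.81, 5.17 and 5.43 in control. It was 3.11-fold higher in OGD/R than in control (1.48, SE 0.13, limma adjusted p = 1.51e-05).

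CSF1 and the receptor TNFRSF1A, both released by ADAM17, fell in OGD and were high in OGD/R. CSF1 averaged 13.4 ± 1.42 FPKM in OGD/R, 1.96 ± 0.184 in OGD and 4.33 ± 0.932 in control, and TNFRSF1A averaged 46.4 ± 5.29 in OGD/R, 14.3 ± 0.729 in OGD and 33.6 ± 5.79 in control. Against control, OGD/R was higher by 1.45 (SE 0.15) for CSF1 and 0.46 (SE 0.12) for TNFRSF1A on the log2 scale (limma adjusted p = 3.08e-05 and 0.0104). TNF itself, the best known substrate of ADAM17, was at 0.121 FPKM or below in every library and was not tested. PROCR, the endothelial protein C receptor, was the only receptor substrate called lower in OGD/R than in OGD, at 53.8 ± 3.28 FPKM in OGD/R, 85.0 ± 1.76 in OGD and 61.7 ± 9.27 in control (log2 fold change -0.65 for OGD/R against OGD, SE 0.11, limma adjusted p = 0.000161).

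Of 9 listed matrix substrates of ADAMTS1, 6 were tested. Against control, 4 rose in OGD/R and 1 fell, in OGD against control 2 rose and 3 fell, and in OGD/R against OGD 5 rose and 1 fell. Under the 3 other scalings 3 or 4 of those 5 rises were called. NID2, counted in both sets of rises in OGD/R, passed the filter through OGD/R alone (1.41 to 2.35 FPKM, against 0.9 or below elsewhere). Its rises are open to that selection. THBS1, thrombospondin 1, shared the order of the groups with ADAMTS1, at 94.8, 133.6 and 121.2 FPKM in OGD/R, 98.0, 78.4 and 80.3 in OGD, and 43.7, 38.7 and 40.8 in control. It was higher in OGD than in control (log2 fold change 1.04, SE 0.13, limma adjusted p = 5.96e-05) and in OGD/R than in control (1.47, SE 0.13, limma adjusted p = 1.3e-05). NID1, a basement membrane linker protein, averaged 19.8 ± 3.10 FPKM in OGD/R, 3.86 ± 0.547 in OGD and 7.07 ± 0.446 in control and was called in all 3 comparisons. TFPI2, a matrix-bound protease inhibitor, averaged 40.4 ± 1.34 FPKM in OGD/R and 54.1 ± 2.47 in control and was lower in OGD/R (-0.41, SE 0.08, limma adjusted p = 0.00229).

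**Figure D4:**
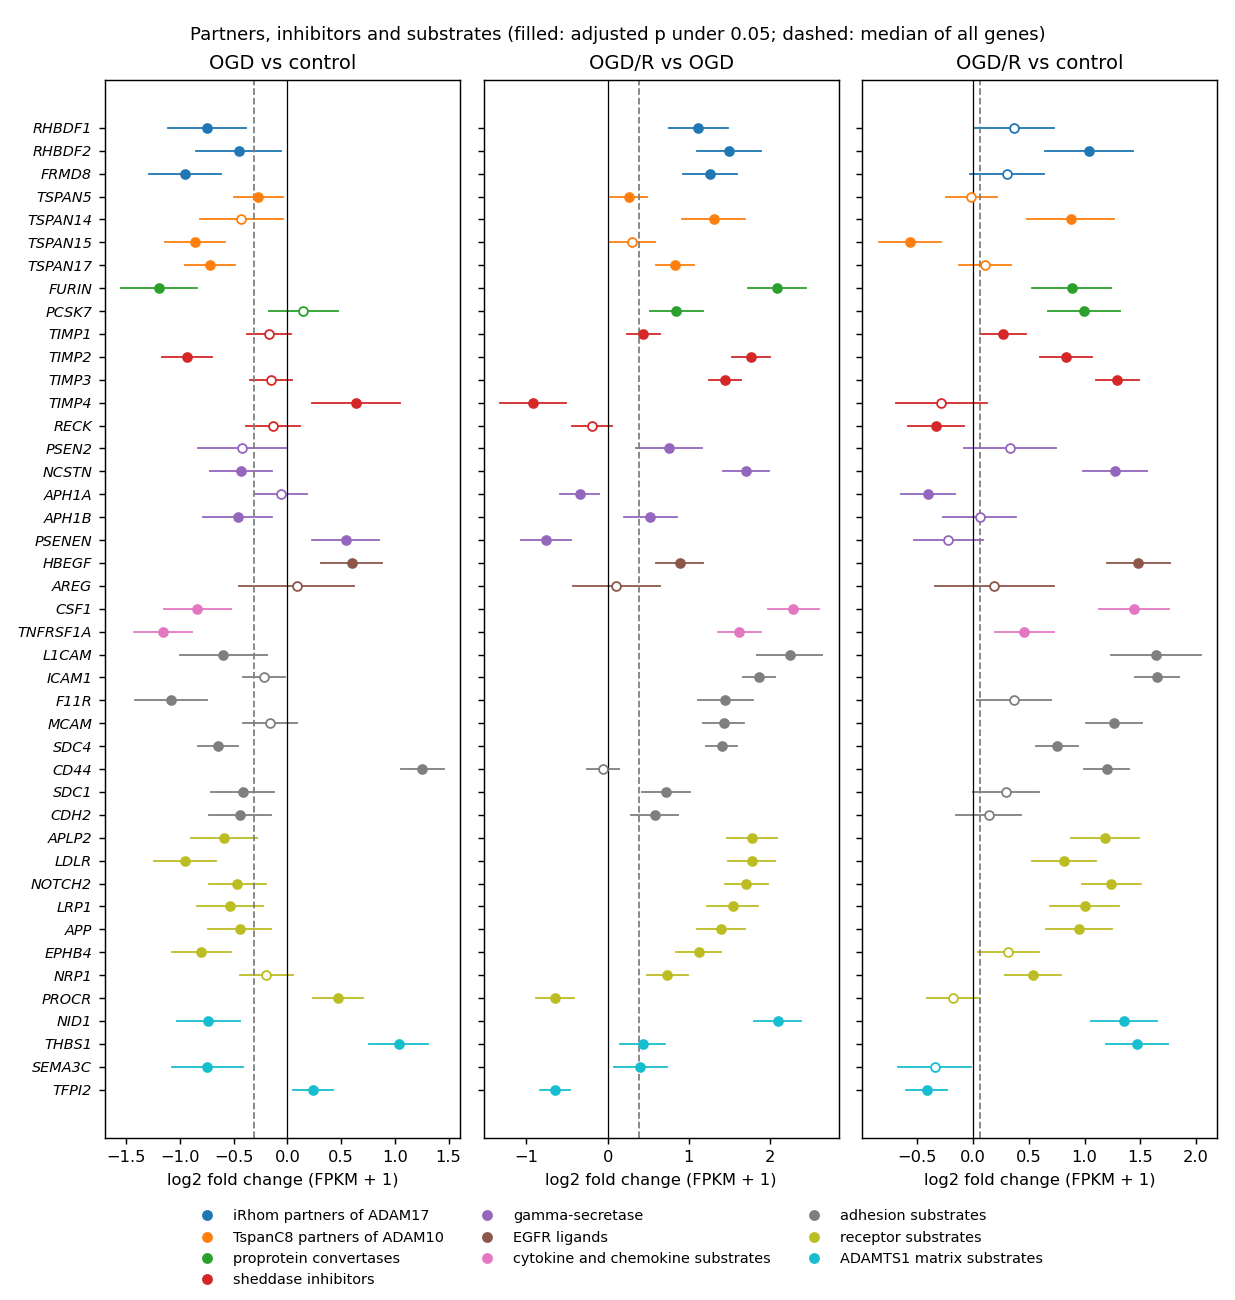
Log2 fold change with its 95% interval for partners, convertases, inhibitors, gamma-secretase genes and substrates, coloured by list and filled where the limma adjusted p was under 0.05, with the median of all tested genes as a dashed line. In OGD/R against control, FURIN, TIMP3, NCSTN, HBEGF, CSF1 and ICAM1 lie at 0.89 or above, and TSPAN15, TFPI2 and APH1A lie at -0.40 or below.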

How the data were processed

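RNA from 9 libraries of 1 cell line was measured by RNA sequencing of total RNA with a SMARTER mRNA kit, per the labels' protocols. The deposited values are FPKM, which the authors computed for each gene in each library, on GRCh38 per the submitters' processing notes. Aligner, quantifier, annotation and use of strand: not given in the sources used here. FPKM alone were used here, so depth is unknown and no counting error is given. Groups came from the sample titles.

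After a filter of 1 FPKM in 3 or more libraries, log2(FPKM + 1) was fitted in limma 3.58.1 (R 4.3.3; lmFit, eBayes with trend) over all 9 libraries together, 2-sided, with Benjamini-Hochberg adjustment over all 10818 genes and a threshold of 0.05. The script was tested on simulated data. All 15570 genes matched RefSeq by NCBI Gene identifier, and GENCODE v29 gave transcript lengths for 99.5% of them.

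The 7 genes and all lists of partners, inhibitors, substrates and markers were chosen with earlier results of these data known. The naming rule took every tested gene from lists of up to 7 genes. From longer lists, genes called in at least 1 comparison and averaging 5 FPKM or more in the higher group were eligible, up to 8 by the size of their change. The figure of partners and substrates plots these genes and the text names part of them. The 3 best-correlated genes per protease and genes overlapping a protease were also named. TNF, KITLG, NOTCH3, NID2, ADAM8, ADAM22, ADAM23, ADAM28 and ADAMTSL4 were named after their values were seen. A listed gene is not reported here. Ratios were compared by exact permutation tests. Alternatives were another pseudocount, filter, scaling, prior, block and set of libraries. Promoters came from RefSeq for GRCh38.p14. Figures used matplotlib 3.10.9 in Python 3.11.15.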

Additional observations from a re-analysis of the deposited data

How the results depend on the processing

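The number of the 7 proteases called was 3 in OGD against control, 6 in OGD/R against OGD and 5 in OGD/R against control. Of all 10818 tested genes 58.0%, 70.7% and 41.2% were called there. It was 5 in OGD against control when only those 2 groups were fitted, where 5955 of 10818 genes were called. It was 3 in OGD/R against OGD after removal of the length trend, where 6393 of 10795 genes were called. It was 2 in OGD/R against control with a filter of at least 5 FPKM, which kept 4 of the 7 and under which 3645 genes were called. Leaving out 1 library at a time gave 3 to 5, 6 to 7 and 4 to 5 calls, and the 5 in OGD against control came without OGD/R library 1. Over those fits 5157 to 6698, 6918 to 7906 and 3424 to 4587 of all tested genes were called. With the replicate number as a block the calls were 3, 6 and 4, with ADAM15 in OGD/R against control lost. In that fit 5956, 7452 and 4128 of all tested genes were called. Same-numbered libraries did not deviate together (r from -0.2 to 0.148), so no pairing by number was detected. That cannot exclude a shared culture or batch, and the labels do not say what the number shares. Of 369 alternative fits of the 7 proteases, 21 gained a call, 23 lost one and 6 turned in sign. A called change turned in 1 of them, ADAM12 in OGD/R against OGD at -0.0879 without the length trend. Uncalled ones turned for ADAMTS1 in OGD/R against OGD (-0.146 and -0.294 under quantile scaling and without the length trend), and in OGD/R against control for ADAM9 (0.003 under quantile scaling, 0.0401 without OGD/R library 1) and ADAM10 (-0.101 without the length trend). The causes were not tested. Other genes that reversed did so under scaling. In OGD against control, under median-of-ratios scaling, TSPAN5 was 0.0892, TIMP3 0.22 and APH1A 0.32, under quantile scaling TSPAN5 was 0.0547, and without the length trend TSPAN5 was 0.11, TIMP3 0.27 and RECK 0.29. In OGD/R against OGD, under median-of-ratios scaling, TSPAN5 was -0.20, TIMP1 -0.0481 and THBS1 -0.0527, under quantile scaling TSPAN5 was -0.17, TSPAN15 -0.28, APH1B -0.0474 and SEMA3C -0.18, and without the length trend TSPAN5 was -0.29, APH1B -0.10, CDH2 -0.0592, THBS1 -0.28 and SEMA3C -0.19. Depth is unknown, so the precision of the low members rests on 3 libraries per group.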

Other observations

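Other members of the same protease families were listed beside the 7. Of 15 other ADAM genes 10 were in the table and only ADAM8, a protease of leukocytes and tumour cells, passed the expression filter. ADAM8 had 1.67, 2.60 and 2.37 FPKM in OGD/R, 0.616, 0.458 and 0.427 in OGD, and 0.538, 0.597 and 0.717 in control. The OGD/R libraries alone reached 1 FPKM and carried ADAM8 through the filter, so their place above every other library followed from that filter. The log2 fold change against control was 0.98 (limma adjusted p = 0.000249), a value open to the same selection. The neuronal ADAM22 and ADAM23 and the lymphocyte ADAM28 were at 1.17, 0.0254 and 0.0301 FPKM or below in every library.

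Of 25 other ADAMTS and ADAMTS-like genes 8 were tested. Against control 5 rose in OGD/R and none fell, where 24.7% of all tested genes rose and 16.5% fell. In OGD/R against OGD 5 rose and 1 fell, where 53.3% rose and 17.4% fell. In OGD against control 2 rose and 2 fell, where 11.3% rose and 46.7% fell. ADAMTSL4, counted in both sets of 5 rises, passed the filter through OGD/R alone (1.14 to 1.32 FPKM, against 0.76 or below elsewhere). The rises in OGD/R were called for 3 to 5 of the 8 against control and for 2 to 5 against OGD under the 3 other scalings. ADAMTS12, which can cut cartilage oligomeric matrix protein, had 14.6, 16.1 and 17.9 FPKM in OGD/R, 38.1, 34.3 and 37.4 in OGD, and 13.7, 11.2 and 17.2 in control. The OGD libraries stood above all others, with log2 fold changes of 1.34 for OGD against control (SE 0.14, limma adjusted p = 1.78e-05) and -1.13 for OGD/R against OGD (SE 0.14, limma adjusted p = 1.44e-05). Both calls held under the 3 other scalings. ADAMTS12 was the most abundant ADAMTS gene tested in all 3 groups, and its peak in OGD is shared by none of the 7 proteases. ADAMTSL5 averaged 6.58 ± 0.898 FPKM in OGD/R, 2.71 ± 0.409 in OGD and 4.22 ± 0.334 in control and was called in all 3 comparisons.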
